A study of Mus musculus with 6 samples.

Results

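Genes for glycolysis, for lactate handling and for the storage and release of glycogen were examined in cultured mouse beige adipocytes, the fat cells of white depots that can take on a heat-producing program. The set was a list of 38 gene names, and 37 of them were found among the 13962 genes of the count table. The remaining name, Pkm, is the current symbol of the gene that the table lists as Pkm2 (ENSMUSG00000032294), so no gene of the list was without a value. All 37 passed the filter on low counts and were tested.

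The cells were C57BL/6 preadipocytes of genotype TLE3F/F CreERT2, taken from inguinal fat and made immortal by Large T antigen. Both groups carried the floxed alleles and the inducible Cre. Both were grown with insulin (20 nM) and T3 (1 nM) and differentiated with rosiglitazone (1 uM), at first also with isobutylmethylxanthine, dexamethasone and indomethacin. On day 4 they received either ethanol (control, n = 3 libraries) or 4-hydroxytamoxifen at 500 nM for 24 hours (labelled TLE3 knockout, n = 3 libraries), and RNA was taken on day 10. TLE3 is a transcriptional corepressor of the Groucho family. The labels name neither a promoter for the Cre nor separate cultures for the replicates, so p-values here reflect only how far these libraries spread, and that spread may be technical. No Cre-free cells with tamoxifen were included, so the compound, Cre activity and the deletion cannot be told apart.

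Glycolysis splits glucose into pyruvate, which mitochondria oxidize or lactate dehydrogenase converts to lactate for export. In adipocytes the pathway also supplies glycerol phosphate for triglyceride synthesis, and thermogenic fat cells take up much glucose. Glycogen is built on the primer protein glycogenin by glycogen synthase and the branching enzyme, and phosphorylase releases glucose phosphate from it. Subunits of protein phosphatase 1 that bind glycogen bring the phosphatase to synthase and phosphorylase, where dephosphorylation favours synthesis.

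Total counts ran from 14606228 to 19294632 per library. Tle3 itself stood at 151, 151 and 152 CPM (counts scaled to a common library total) in controls 1 to 3 and at 287, 289 and 294 CPM in the libraries labelled knockout. Its counts were thus higher in the libraries labelled knockout (log2 fold change 0.94, SE 0.038; edgeR adjusted p 3.54e-07). The counts are for the whole gene and not for the deleted exons alone, so they cannot check the labels, and every direction below is that of the libraries labelled knockout. Adipocyte markers were abundant in all 6 libraries, with Fabp4 from 3761 to 5978 CPM, and of 10 such genes 2 (Lipe and Retn) rose. Of 8 thermogenic markers 5 rose and 1 fell, and their summed level was 507 to 603 CPM in controls and 830 to 968 CPM in the libraries labelled knockout. Of 10 listed markers of preadipocytes and fibroblasts 2 (Dlk1 and Postn) rose and 2 (Pdgfra and Thy1) fell, with a summed level of 13416 to 15503 CPM against 13683 to 14221 CPM. Of 10 skeletal muscle markers 3 were in the table, and of these myoglobin (Mb), at 213 to 295 CPM in controls and 385 to 452 CPM in the libraries labelled knockout, rose, while Myod1, Myog and Ckm were not listed. Macrophage markers summed to at most 5.39 CPM and endothelial markers to at most 3.55 CPM. The part of any of these genes in the results below was not tested.

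In the set 5 of the 37 genes changed in either direction, against 12.3% of all tested genes. Of these 5 genes 3 act in glycogen metabolism, whose listed groups hold 6, 5 and 3 genes of the set. A gene was said to rise or fall when its edgeR quasi-likelihood p, adjusted by the Benjamini-Hochberg method over all 13192 tested genes, was under 0.05. By this measure 4 of the 37 genes rose, against 6.91% of all tested genes, and 1 fell, against 5.44%. Those that rose were Ppp1r3b and Ppp1r3d, which encode glycogen-targeting subunits of protein phosphatase 1, the lactate dehydrogenase gene Ldhb, and Pfkfb1. The gene that fell was Gyg, which encodes glycogenin. None of the genes for the main line of enzymes from hexokinase to pyruvate kinase changed by edgeR, DESeq2 or limma-voom, while 4 of these 15 genes (Pfkl, Pfkm, Aldoa and Pgk1) had an unadjusted edgeR p under 0.05. In bulk RNA, fewer cells of a type and less RNA per cell cannot be told apart, which applies to each of these differences.

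Small positive differences were common in the set, mostly in genes without a call. The log2 fold change was above 0 in 33 of the 37 genes, 4 of them called, and in 6514 of all 13192 tested genes. The median was 0.15 for the 37 genes and −0.0025 for all tested genes. In 8 of the 37 genes every library labelled knockout lay above every control, against 16.0% of tested genes, and in 1, Gyg, every one lay below, against 15.8%. The 8 were Pfkm, Pfkfb1, Gapdh, Ldhb, Gys1, Pgm1, Ppp1r3b and Ppp1r3d. In the other 28 genes the groups overlapped.

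**Figure D1:**
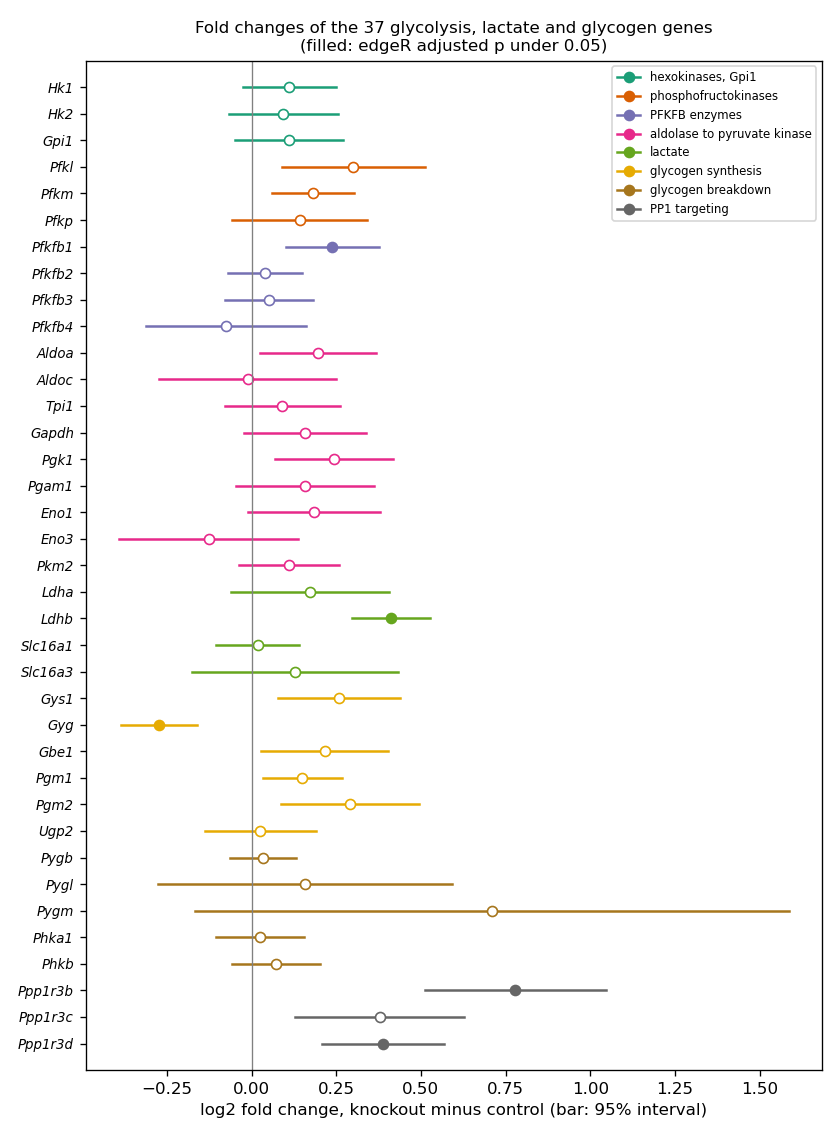
Log2 fold changes (knockout minus control, x axis) of the 37 genes, ordered and coloured by role, with 95% intervals from the edgeR fit of 3 against 3 libraries. Filled points passed the threshold: Ppp1r3b, Ppp1r3d, Ldhb and Pfkfb1 to the right of 0 and Gyg to the left. The wide interval of Pygm goes with its level under 1 CPM.

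Glucose is trapped by hexokinase and turned into fructose phosphate by the isomerase Gpi1. Hk2, the insulin-responsive hexokinase, stood at 199, 225 and 182 CPM in controls 1 to 3 and at 202, 229 and 215 CPM in the libraries labelled knockout. Hk1, the hexokinase of most tissues, stood at 187, 195 and 163 CPM against 189, 201 and 198 CPM. The groups overlapped in both genes, with log2 fold changes of 0.09 (95% interval −0.07 to 0.25) for Hk2 and 0.11 (−0.02 to 0.25) for Hk1. Per length, on the scale of the authors' rounded FPKM, Hk2 was the more abundant, from 31 to 38 against 19 to 23 in the 6 libraries. The log2 ratio of Hk1 to Hk2 counts was −0.15 in controls and −0.13 in the libraries labelled knockout, a difference of 0.018 (exact two-sided permutation p 0.8, adjusted p 0.8 over 10 pairs). The isomerase gene Gpi1 went from 1039 ± 109 to 1121 ± 58.3 CPM (SD, n = 3), with overlapping groups and an edgeR adjusted p of 0.357.

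Phosphofructokinase makes the committed step of the pathway, and its subunits come from a liver-type, a muscle-type and a platelet-type gene. The liver-type gene Pfkl stood at 648, 694 and 528 CPM in controls and at 687, 840 and 775 CPM in the libraries labelled knockout. Knockout 1 lay below control 2, so the groups overlapped, and the log2 fold change of 0.30 (SE 0.096) did not pass the threshold (edgeR adjusted p 0.0645). The muscle-type gene Pfkm was at 71.3, 74.3 and 66.4 CPM against 80.4, 76.0 and 83.7 CPM. Its groups did not overlap, but the smallest gap between them was narrow, and the call was missed as well (log2 0.18, edgeR adjusted p 0.0540). The platelet-type gene Pfkp was at 177, 211 and 164 CPM against 180, 220 and 209 CPM (log2 0.14, edgeR adjusted p 0.344).

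Per length Pfkl led by far, with rounded FPKM from 122 to 189, ahead of Pfkm at 22 to 27 and Pfkp at 18 to 23. The balance between liver-type and platelet-type subunits was measured within each library, where scaling between libraries plays no part. The log2 ratio of Pfkp to Pfkl counts was −1.87, −1.72 and −1.68 in the control libraries and −1.93, −1.93 and −1.89 in the libraries labelled knockout. Every library labelled knockout lay below every control, by a mean of −0.16. Pfkp has 748 exon bases in common with Pitrm1 on the opposite strand (GENCODE M21). Over the 6 libraries Pitrm1 held 16076 counts and Pfkp 18664. The strand setting of the counter is not known, and the part of Pitrm1 reads in this ratio was not tested. The exact permutation p was 0.1, the smallest that 3 against 3 libraries allow, and 0.5 adjusted over the 10 pairs. The ratio of Pfkm to Pfkl overlapped between the groups (difference −0.12, exact permutation p 0.5).

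The bifunctional PFKFB enzymes set the level of fructose bisphosphate activator that drives phosphofructokinase. Pfkfb1, the isoform known from liver and muscle, rose from 60.7, 66.1 and 55.7 CPM in controls to 68.8, 72.1 and 73.9 CPM. The groups did not overlap, and the fold change was 1.18 (log2 0.24, SE 0.062; edgeR adjusted p 0.0303). The call was lost in fits without control 1, control 3, knockout 2 or knockout 3 (edgeR adjusted p 0.0772 to 0.133). In addition, 123 exon bases of Pfkfb1 are shared with Apex2 on the opposite strand (GENCODE M21), and without a known strand setting the reads of both genes cannot be told apart there. Apex2 itself was not called (log2 −0.04).

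Pfkfb3, the highly active isoform induced by growth signals and low oxygen, was the most abundant of the 4 per length, at a rounded FPKM of 20 to 23. It stood at 144, 159 and 138 CPM in controls and 160, 142 and 155 CPM in the libraries labelled knockout, with intermingled groups (log2 0.05, 95% interval −0.08 to 0.18). Pfkfb2, the heart-type isoform, stood at 49.0, 50.3 and 48.3 CPM against 51.4, 48.0 and 52.1 CPM, and Pfkfb4 ranged from 12.3 to 15.9 CPM over all 6 libraries. The Pfkfb3 to Pfkfb2 ratio differed by 0.014 on the log2 scale (exact permutation p 0.8).

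The enzymes from aldolase to pyruvate kinase carry the pathway to pyruvate, and none of their 9 listed genes was called by edgeR, DESeq2 or limma-voom. Their median log2 fold change was 0.16, 7 of the 9 were above 0, and Aldoa and Pgk1 had an unadjusted edgeR p under 0.05. The aldolase gene Aldoa stood at 1419.5, 1546 and 1278 CPM in controls and at 1472, 1732 and 1656 CPM in the libraries labelled knockout (log2 0.20, edgeR adjusted p 0.128). Knockout 1 lay below control 2, and the other libraries labelled knockout lay above all controls. The brain-type aldolase gene Aldoc was at 26.3, 29.8 and 21.9 CPM against 23.3, 29.8 and 24.0 CPM, with intermingled groups. Triose phosphate isomerase (Tpi1) was at 886 ± 92.9 and 943 ± 71.7 CPM, and the pyruvate kinase gene Pkm2 at 1300.2 ± 104 and 1403 ± 86.5 CPM (edgeR adjusted p 0.492 and 0.318). The muscle enolase gene Eno3 was at 6.43, 7.04 and 6.79 CPM against 6.67, 5.39 and 6.43 CPM (log2 −0.13, edgeR adjusted p 0.543).

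Several genes of this stretch have many near-copies in the mouse genome, and their listed levels are uncertain. Gapdh, known as one of the most abundant transcripts of most cells, was listed at 11.0 to 13.1 CPM and a rounded FPKM of 5 or 6, against 365 to 453 for Tpi1, which acts one step earlier. Of all 50-base stretches of the longest coding transcript of Gapdh in GENCODE M21, 82.5% also occur in a transcript of another gene, and 213 of the 222 genes concerned are pseudogenes. In the count table, 47 of these 222 genes were listed, and they held 14288 counts over the 6 libraries, against 1184 for Gapdh. The share was 72.2% for the enolase gene Eno1, 68.0% for Pgk1, 41.5% for Pgam1 and 34.4% for Pkm2, and 7.51% for Tpi1. The sources used here do not say how reads with several matches were counted, and the part of these copies in the listed levels was not tested. Gapdh also has 68 exon bases in common with Iffo1 on the opposite strand. Iffo1 held 1080 counts over the 6 libraries, and the part of its reads in the Gapdh counts was not tested. For Gapdh (log2 0.16, edgeR adjusted p 0.241), Pgk1 (0.24, 0.0694), Pgam1 (0.16, 0.303) and Eno1 (0.19, 0.201), the values describe only the reads that were kept.

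Lactate dehydrogenase is a tetramer of A and B subunits, of which the A subunit is known for favouring lactate formation and the B subunit for favouring lactate use. Ldhb, the gene of the B subunit, stood at 211, 234 and 204 CPM in controls 1 to 3 and at 283, 285 and 294 CPM in the libraries labelled knockout. All libraries labelled knockout lay above all controls, and the spread among them was small. The mean went from 216 ± 15.6 to 287 ± 5.52 CPM (SD, n = 3), a fold change of 1.33 (log2 0.41, SE 0.052, 95% interval 0.30 to 0.53; edgeR adjusted p 0.000942). The call held in every fit that left out 1 library, with log2 fold changes from 0.373 to 0.471. Ldhb shares 27.0% of its 50-base stretches with 1 pseudogene, Gm5514, which held 182 counts over the 6 libraries against 24243 for Ldhb.

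Ldha, the gene of the A subunit, stood at 1570.0, 1817.5 and 1330.3 CPM in controls and at 1594, 1977 and 1745 CPM in the libraries labelled knockout. Control 2 was above knockout 1 and knockout 3, so the groups overlapped, and the log2 fold change was 0.17 (SE 0.105; edgeR adjusted p 0.319). Per length, Ldhb made up 20.4%, 19.6% and 22.6% of the summed rounded FPKM of both genes in controls and 25.2%, 21.5% and 24.2% in the libraries labelled knockout. The A subunit gene was thus the main one in every library, and control 3 had a larger B share than knockout 2. The log2 ratio of Ldhb to Ldha counts went from −2.85 ± 0.132 to −2.62 ± 0.155 (difference 0.235, exact permutation p 0.2, adjusted p 0.5 over 10 pairs). The groups overlapped in this ratio, and libraries of 1 group spread more in Ldha than in Ldhb.

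Lactate leaves and enters cells through monocarboxylate transporters. Slc16a1, which encodes the widely expressed transporter MCT1, stood at 334, 369 and 315 CPM in controls and at 345, 346 and 340.1 CPM in the libraries labelled knockout. The libraries labelled knockout all lay within the range of the controls, and the log2 fold change was 0.02 (95% interval −0.10 to 0.14). Slc16a3, which encodes the exporter MCT4 of highly glycolytic cells, was scarce, at 4.34, 5.08 and 4.44 CPM against 4.55, 5.67 and 4.89 CPM (edgeR adjusted p 0.599). Rounded FPKM values were 72 to 83 for Slc16a1 and 1 for Slc16a3 in all 6 libraries.

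**Figure D2:**
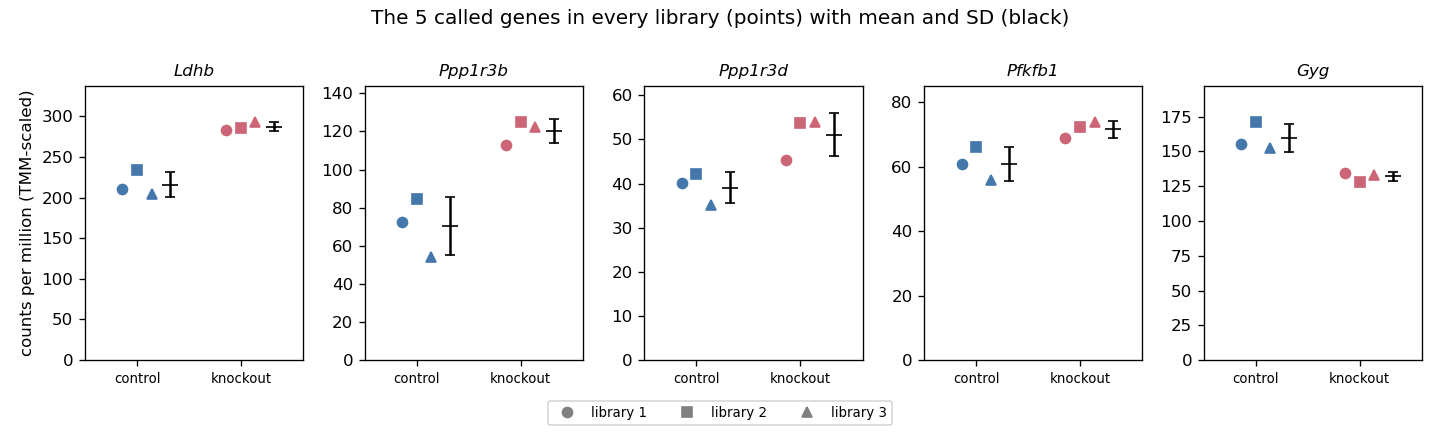
CPM (y axis, from 0) of the 5 genes that passed the threshold, with one point for each library and the mean and SD of 3 libraries in black beside each group. Ldhb, Ppp1r3b, Ppp1r3d and Pfkfb1 are higher in all 3 libraries labelled knockout than in any control, and Gyg is lower in all 3.

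Of the 6 genes of glycogen synthesis 1 was called. Gyg, which encodes the self-glucosylating primer glycogenin, fell from 156, 171 and 152 CPM in controls to 135, 128 and 133 CPM. The groups did not overlap, and the log2 fold change was −0.27 (SE 0.051, 95% interval −0.39 to −0.16; edgeR adjusted p 0.00679). The call held without any 1 library (log2 from −0.305 to −0.222). Gys1, the glycogen synthase gene of muscle and fat, stood at 278, 291 and 227 CPM in controls and at 296, 337 and 319 CPM in the libraries labelled knockout. Its groups did not overlap either, in the opposite direction, but the threshold was missed by edgeR (log2 0.26, SE 0.082; adjusted p 0.0641) and passed by DESeq2 (adjusted p 0.0193). Gys1 has 310 exon bases in common with Ruvbl2 on the opposite strand.

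The branching enzyme gene Gbe1 was at 230, 266 and 204 CPM against 248, 284 and 279 CPM (log2 0.22, edgeR adjusted p 0.126). Phosphoglucomutase interconverts the glucose phosphates that enter and leave glycogen, and the mouse symbols Pgm1 and Pgm2 have been exchanged between annotations. The gene listed as Pgm2 (ENSMUSG00000025791, Pgm1 in GENCODE M21) stood at 367, 405 and 313 CPM in controls and at 391, 481 and 453 CPM in the libraries labelled knockout (log2 0.29, edgeR adjusted p 0.0641). The gene listed as Pgm1 (ENSMUSG00000029171, Pgm2 in GENCODE M21) was at 42.7, 39.7 and 44.4 CPM against 47.3, 47.8 and 46.0 CPM, with groups that did not overlap (log2 0.15, edgeR adjusted p 0.0933). Ugp2, which makes the UDP-glucose that synthase uses, was at 224 ± 20.9 and 228 ± 20.1 CPM.

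None of the 5 genes of glycogen breakdown changed by edgeR, DESeq2 or limma-voom, and none had an unadjusted edgeR p under 0.05. The brain-type phosphorylase gene Pygb was the main one of the 3 phosphorylase genes, at a rounded FPKM of 25 to 27 against 1 for the liver-type Pygl and 0 for the muscle-type Pygm. Pygb stood at 129, 125 and 121 CPM in controls and at 124, 129 and 132 CPM in the libraries labelled knockout (log2 0.04, 95% interval −0.06 to 0.13). Pygl was at 3.05, 4.13 and 2.86 CPM against 2.93, 3.80 and 4.35 CPM, and Pygm rested on 6 to 16 counts per library. The phosphorylase kinase genes Phka1 (30.8 to 33.7 CPM) and Phkb (36.2 to 42.2 CPM) varied little over the 6 libraries.

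The log2 ratio of synthase to phosphorylase counts, Gys1 to Pygb, was 1.11, 1.22 and 0.91 in controls and 1.26, 1.39 and 1.28 in the libraries labelled knockout. Every library labelled knockout lay above every control, by a mean of 0.228. The exact permutation p was 0.1, the smallest possible, and 0.5 adjusted over the 10 pairs. The remaining pairs, Aldoc to Aldoa, Eno3 to Eno1, Slc16a3 to Slc16a1 and Pygb to Pygl, overlapped between the groups, with exact permutation p from 0.2 to 0.5.

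**Figure D3:**
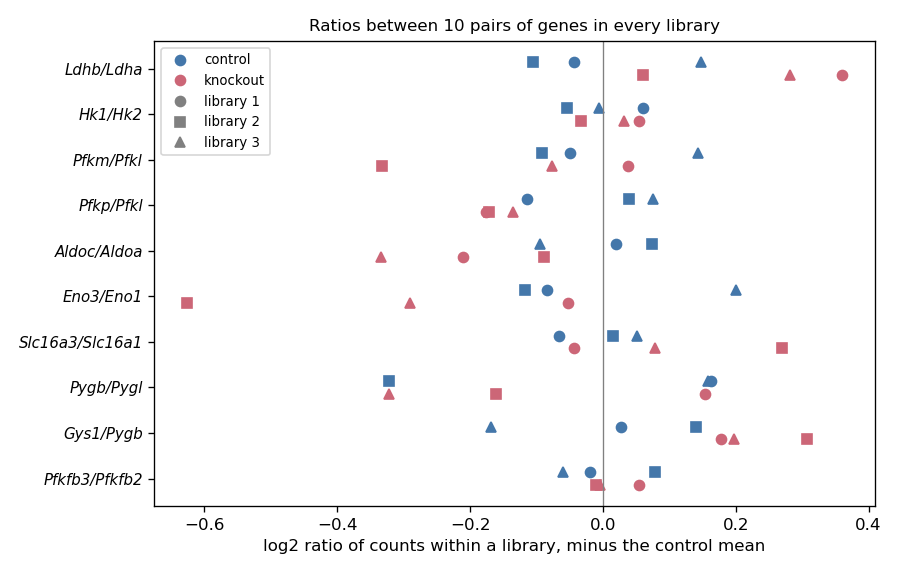
Log2 ratio of the counts of 2 genes within a library, minus the mean of the 3 controls (x axis), for 10 pairs. Points are libraries, coloured by group and shaped by number. Only for Pfkp/Pfkl (mean −0.16) and Gys1/Pygb (mean 0.228) do the groups not overlap.

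The glycogen-targeting subunits of protein phosphatase 1 included the gene of the set with the largest rise among those called. Ppp1r3b, which encodes the subunit GL known from liver, rose from 72.6, 84.5 and 53.9 CPM in controls to 113, 125 and 122 CPM. All libraries labelled knockout lay far above all controls, and control 3 was the lowest. The mean went from 70.3 ± 15.4 to 120.1 ± 6.40 CPM (SD, n = 3), a fold change of 1.72 (log2 0.78, SE 0.121, 95% interval 0.51 to 1.05; edgeR adjusted p 0.00272). Without control 3 the log2 fold change was 0.617 and the call held, as it did without any other 1 library.

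Ppp1r3d, which encodes a further targeting subunit, rose from 40.04, 42.1 and 35.1 CPM to 45.4, 53.8 and 54.04 CPM. The groups did not overlap, with a fold change of 1.31 (log2 0.39, SE 0.082; edgeR adjusted p 0.0115), and the call was lost without knockout 3 (adjusted p 0.0678). Ppp1r3c, which encodes the subunit PTG (protein targeting to glycogen), stood at 91.1, 103 and 71.8 CPM in controls and at 101, 125 and 119 CPM in the libraries labelled knockout. Control 2 lay above knockout 1, and the gene missed the threshold by edgeR (log2 0.38, SE 0.113; adjusted p 0.0516) while limma-voom placed it just inside (adjusted p 0.0498). Per length the order was Ppp1r3c (rounded FPKM 27 to 45), Ppp1r3b (13 to 29) and Ppp1r3d (11 to 16), and neighbours in this order had overlapping ranges.

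Much of the variation was between libraries of the same group, and it was shared by many of these genes. In 18 of the 37 genes (48.6%), control 3 was the lowest and control 2 the highest control, and at the same time knockout 1 was the lowest and knockout 2 the highest library labelled knockout. Over all tested genes this was so for 6.65%. The 18 included Hk1, Hk2, Gpi1, Pfkl, Pfkp, Aldoa, Tpi1, Pgk1, Eno1, Pkm2, Ldha, Gys1, Gbe1 and the gene listed as Pgm2, and this order was singled out after the values were seen. Of the 5 called genes only Ppp1r3b followed it in both groups, but all 5 had its order of the controls. Taken alone, the order of the controls held in 29 of the 37 genes (78.4%), against 21.7% of all tested genes. The order of the libraries labelled knockout held in 20 (54.1%), against 19.9%. The median of the 37 genes, on the log2 CPM scale relative to the mean of the 6 libraries, was −0.080, 0.052 and −0.196 in the control libraries and −0.020, 0.135 and 0.073 in the libraries labelled knockout.

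Hypoxia-inducible factors switch on genes of glycolysis and other genes when oxygen is low. In a list of these factors, their regulators and targets outside glycolysis, 12 of 19 tested genes (63.2%) had the order of libraries described above, and 7, among them Hif1a and Epas1, did not. The summed level of this list was 2489, 2781 and 2298 CPM in controls and 2487, 2976 and 2675 CPM in the libraries labelled knockout. Of the 19 genes 1 rose and 2 fell. Epas1, which encodes HIF-2 alpha, rose from 23.5 ± 1.80 to 30.1 ± 1.46 CPM, and Hif1a fell from 242 ± 6.33 to 211 ± 4.64 CPM (edgeR adjusted p 0.00919 and 0.0107). The carbonic anhydrase gene Car12 fell from 4.04 ± 0.631 to 1.75 ± 0.254 CPM. The call of Epas1 was lost without knockout 3 (edgeR adjusted p 0.0548), and that of Hif1a without control 1 or knockout 3 (0.0615 and 0.0748). The order was not confined to the hypoxia list. The summed level of 10 adipocyte markers had it too, at 11346, 11597 and 9765 CPM in controls 1 to 3. In the libraries labelled knockout 1 to 3 that sum was 10799, 12395 and 11879 CPM. So did the sum of 8 thermogenic markers, at 574, 603 and 507 CPM against 830, 968 and 938 CPM. The summed level of 10 listed markers of preadipocytes and fibroblasts did not have this order and was highest in control 3, at 15503 CPM. The part of these differences between libraries in the calls was not tested.

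**Figure D4:**
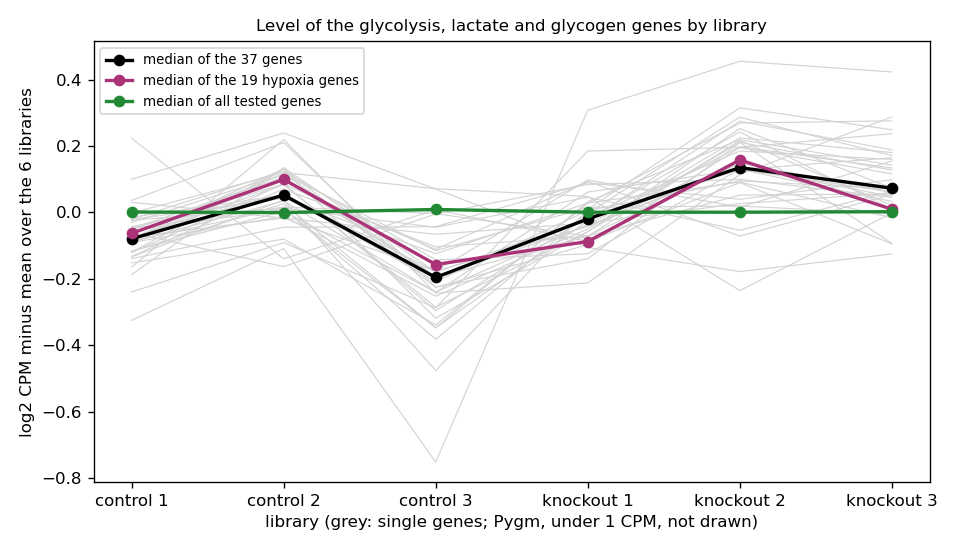
Log2 CPM minus the mean over the 6 libraries (y axis) in each library (x axis). Grey lines are single genes of the set, and coloured lines are medians. The median of the 37 genes is lowest in control 3 (−0.196) and highest in knockout 2 (0.135), the median of 19 hypoxia genes has the same lowest and highest libraries, and that of all tested genes is near 0 throughout.

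The number of genes called depended on the libraries included. Without control 2, the highest control, 15 of the 37 genes rose, with Gpi1, Pfkl, Pfkm, Aldoa, Pgk1, Pgam1, Eno1, Gys1, Gbe1, Ppp1r3c and the gene listed as Pgm2 added. Without knockout 1, 8 rose. Without knockout 3, 2 rose, Ldhb and Ppp1r3b. Without control 3 the count was 3, and the median log2 fold change was 0.068 in place of 0.15.

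Promoter sequences are shown for both lactate dehydrogenase genes and for a pair of targeting subunits, chosen so that each pair holds a called and an uncalled gene. They are the 250 bases before the RefSeq start (GRCm38.p6), 5′ to 3′ on the gene's strand. Capitals mark each ACGTG on either strand, which is one form of the core of the hypoxia response element. Other forms of this core were not searched for and are not marked.

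Ldha (chr7:46845554-46845803, + strand): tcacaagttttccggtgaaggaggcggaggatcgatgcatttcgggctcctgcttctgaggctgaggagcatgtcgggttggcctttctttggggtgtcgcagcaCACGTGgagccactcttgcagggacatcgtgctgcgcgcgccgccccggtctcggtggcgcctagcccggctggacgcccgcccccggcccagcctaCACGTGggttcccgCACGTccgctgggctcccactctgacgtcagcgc

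Ldhb (chr6:142507958-142508207, - strand): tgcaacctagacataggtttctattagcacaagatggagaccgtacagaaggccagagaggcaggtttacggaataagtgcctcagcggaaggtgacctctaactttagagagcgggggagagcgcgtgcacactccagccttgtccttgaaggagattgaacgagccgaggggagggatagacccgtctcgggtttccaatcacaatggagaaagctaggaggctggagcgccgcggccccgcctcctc

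Ppp1r3c (chr19:36736605-36736854, - strand): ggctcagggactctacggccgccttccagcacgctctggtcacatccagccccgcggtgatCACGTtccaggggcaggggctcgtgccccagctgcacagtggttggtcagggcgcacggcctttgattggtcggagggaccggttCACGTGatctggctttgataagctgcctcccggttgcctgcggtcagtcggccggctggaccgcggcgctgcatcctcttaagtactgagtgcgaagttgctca

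Ppp1r3d (chr2:178414464-178414713, - strand): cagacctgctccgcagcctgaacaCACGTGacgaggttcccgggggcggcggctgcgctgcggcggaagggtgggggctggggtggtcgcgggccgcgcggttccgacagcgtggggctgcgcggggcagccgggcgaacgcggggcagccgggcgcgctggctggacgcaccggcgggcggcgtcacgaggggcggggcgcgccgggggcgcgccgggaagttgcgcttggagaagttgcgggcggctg

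These 250 bases held 5 matches for Ldha, 0 for Ldhb, 3 for Ppp1r3c and 2 for Ppp1r3d. A CACGTG counts as 2 matches, since it reads ACGTG on both strands. In windows from 250 bases before to 50 after the start, ACGTG occurred in 20 of 36 promoters of the set (55.6%), in 26.0% of 9678 promoters of tested genes, and in 19.6% of all 32851 promoters in the table. The E-box CACGTG, which contains it, occurred in 7 of 36 (19.4%), 10.4% and 7.15%. Among the genes of the set that followed the order of libraries above, 7 of 17 promoters held ACGTG (41.2%), and among the others 13 of 19 (68.4%). Promoters were matched through the gene ID and its GENCODE M21 symbol for 36 of the 37 genes, and these counts describe letters in a window, not binding. The gene without a promoter in the source used was Ppp1r3b, which was called and followed the order of libraries. It is therefore neither shown nor counted here.

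Around the pathway, counts of called genes were again read against 6.91% of all tested genes that rose and 5.44% that fell. Of 5 tested glucose transporter genes only Slc2a4, which encodes the insulin-responsive GLUT4, rose, from 171, 170 and 137 CPM to 200, 216 and 223 CPM (log2 0.42, edgeR adjusted p 0.00669). Both subunit genes of the mitochondrial pyruvate carrier rose, Mpc1 from 11.2 ± 0.571 to 15.8 ± 1.02 CPM and Mpc2 from 118 ± 6.66 to 152 ± 7.21 CPM (edgeR adjusted p 0.0054 and 0.00214). In the same list of 6 genes, Emb, which encodes the transporter chaperone embigin, fell from 25.7, 26.3 and 32.7 CPM to 15.3, 14.6 and 17.5 CPM (log2 −0.84, edgeR adjusted p 0.00091).

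Pyruvate dehydrogenase kinases restrain pyruvate oxidation, and of 6 genes for these kinases and their phosphatases 1 rose and 1 fell. Pdk4, the isoform of fasting, fell from 381, 485 and 480 CPM to 330, 325 and 336 CPM, and Pdk2 rose from 53.4 ± 4.10 to 66.9 ± 1.49 CPM (edgeR adjusted p 0.00548 and 0.00574).

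Cytosolic reducing equivalents of glycolysis are passed to mitochondria by the glycerol phosphate and malate-aspartate shuttles. Of 10 genes of these shuttles 6 rose and 0 fell by edgeR, with 7 up and 0 down at an unadjusted p under 0.05 and by DESeq2 and limma-voom. Gpd1, which draws glycerol phosphate from the pathway, rose 1.53-fold, Mdh1 1.37-fold, Slc25a11 1.23-fold and Slc25a12 1.18-fold. The median of the 10 was 0.218 on the log2 scale. In the pentose phosphate pathway 3 of 8 genes rose and 1 fell, namely Rpe (1.21-fold), Pgls (1.20-fold) and Taldo1 (1.20-fold) against H6pd (log2 −0.30). The call of Slc25a12 was lost without knockout 3 (edgeR adjusted p 0.052), and that of Pgls without knockout 2 or knockout 3 (0.0611 and 0.0793). Taldo1 lost its call without control 1, control 3, knockout 2 or knockout 3 (edgeR adjusted p 0.0777 to 0.18).

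Among genes outside the set for other glycolytic enzymes and isoforms, Pgp rose 1.22-fold and Galm 1.17-fold, and Adpgk fell by 0.19 on the log2 scale. Of 4 tested genes of gluconeogenesis Pck1 rose 1.45-fold, and of 5 genes for glucose-sensing MLX factors and targets Arrdc4 fell by 0.34 on the log2 scale. Galm and Adpgk were not called by DESeq2 (adjusted p 0.0761 and 0.133). Without 1 library, the call of Galm was lost in 4 of 6 fits (without control 1, control 3, knockout 2 or knockout 3, edgeR adjusted p 0.0763 to 0.145). That of Adpgk was lost in 5 (all but the fit without control 1, edgeR adjusted p 0.0646 to 0.167), and that of Arrdc4 in 3 (without control 1, knockout 2 or knockout 3, edgeR adjusted p 0.0615 to 0.0827).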

How the data were processed

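Poly(A) RNA of 6 libraries, 3 per group, had been sequenced from stranded libraries, per the labels' protocols. The authors deposited whole-number counts per gene, and FPKM values rounded to whole numbers, treated here as a score and used only to compare levels per length. Novoalign 2.8, Picard, DESeq2 and the mm9 build are named in the submitters' processing notes. No source used here gives their roles, the counter, its annotation or its strand setting. Each listed gene reached at least 10 counts in a library.

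Genes were filtered by edgeR's expression filter (13192 of 13962 kept) and scaled by TMM, and the quasi-likelihood test compared the groups with the group alone as design (edgeR 4.0.16, R 4.3.3). Each SE was derived from the fold change and its F statistic, and CPM use TMM-scaled library sizes. Alternatives were RLE scaling, library size alone, DESeq2 1.42.0, limma-voom (limma 3.58.1), no filter, a replicate block and leaving out each library. Ratios used a prior count of 0.5, or 2 as an alternative. Where a listed symbol outside the set was absent, its ID was found by its GENCODE M21 symbol. The genes, lists and pairs were chosen with earlier results of these data known. Text names every gene of the set, and from other lists up to 4 called genes by smallest adjusted p, except for results that are not reported here. The scripts were tested on simulated data. The labels do not say whether replicate numbers pair the libraries, and the main fit did not pair them.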

Additional observations from a re-analysis of the deposited data

How the results depend on the processing

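With RLE scaling, library size alone, DESeq2, limma-voom or no filter, Ldhb, Ppp1r3b, Ppp1r3d, Pfkfb1 and Gyg stayed called in their direction, 4 or 5 genes of the set rose and 1 fell. DESeq2 added Gys1, and limma-voom, no filter and library size alone each added Ppp1r3c. The median over the set ran from 0.135 to 0.155 in these fits and from 0.0681 to 0.194 without 1 library. Without 1 library, between 2 and 15 genes of the set rose and 1 fell, and 621 to 1895 genes changed in all, against 1629 with all 6 libraries. Such fits have fewer libraries, and the cause of each lost or added call was not tested. The direction of 4 uncalled genes turned without 1 library: Aldoc ran from −0.129 to 0.0919, Pfkfb4 from −0.152 to 0.0353, Slc16a1 from −0.0313 to 0.0827 and Ugp2 from −0.0357 to 0.0968 on the log2 scale. Among ratios, Hk1/Hk2 ran from −0.00964 to 0.0477 and Pfkfb3/Pfkfb2 from −0.0163 to 0.0529.

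The labels do not say whether shared replicate numbers pair the libraries. With 3 libraries per group, the correlations given here cannot decide it. The correlation of deviations from the group means was −0.0396, 0.191 and 0.0308 for numbers 1 to 3, and control 3 went best with knockout 1 (0.227). With the replicate block, 10 genes of the set rose and 1 fell, and 1809 genes changed in all. At these totals, genes under about 1 CPM such as Pygm rest on a few counts per library.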
